A study of Mus musculus with 8 samples.

Results

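Drug-metabolising enzymes make foreign and endogenous compounds easier to excrete, and 5 of their gene families were followed here in newborn mouse kidney: cytochromes P450 of families 1 to 4 (Cyp), flavin-containing monooxygenases (Fmo), glutathione S-transferases (Gst), UDP-glucuronosyltransferases (Ugt) and sulfotransferases (Sult). Members were taken by gene symbol, and symbols ending in -ps were left out. This gave 150 of the 35976 listed genes: 81 Cyp, 7 Fmo, 21 Gst, 20 Ugt and 21 Sult genes. The Cyp pattern also took in Cyp4x1os, which is annotated as an antisense RNA.

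RNA was measured in 8 kidney libraries from mice at postnatal day 3. The 4 YAP libraries, 2 male and 2 female, carry the genotype Slc12a3 Cre/+; C1 YAP/+, which the series describes as a Yap1 gain of function. The 4 Ctrl libraries, again 2 male and 2 female, carry Slc12a3 Cre/+; C1 +/+, so the Cre allele is common to both genotypes. Slc12a3 encodes the sodium-chloride cotransporter of the distal convoluted tubule, and the labels do not explain C1. They do not say that libraries of a group came from separate animals, so p-values refer to the spread among these libraries only, which may be technical.

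Enzymes of phase I, such as the P450s and the flavin-containing monooxygenases, add or expose a reactive group on a molecule. Enzymes of phase II then attach glutathione, glucuronic acid or sulfate. In the kidney many of these enzymes are known from the proximal tubule, the segment that takes up and secretes drugs and other organic ions, and some Cyp4a, Cyp2j and Cyp2c enzymes act there on arachidonic acid rather than on drugs.

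The sequences upstream of 6 members described below are shown first. They are 2 alternative first exons of the Ugt1a locus with unlike values, the neighbouring genes Gsto1 and Gsto2, the aryl hydrocarbon receptor target Cyp1a1, and the sterol sulfotransferase Sult2b1. Each is the 250 bases before a transcription start in RefSeq on GRCm38.p6, 5′ to 3′, and capitals mark the motif matches described in the next paragraph.
Ugt1a10, chr1:88055161-88055410, plus strand: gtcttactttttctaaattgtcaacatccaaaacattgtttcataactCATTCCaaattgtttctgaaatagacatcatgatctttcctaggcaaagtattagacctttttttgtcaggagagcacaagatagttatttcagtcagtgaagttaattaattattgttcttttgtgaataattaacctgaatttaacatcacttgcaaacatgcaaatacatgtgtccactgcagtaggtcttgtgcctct
Ugt1a2, chr1:88200361-88200610, plus strand: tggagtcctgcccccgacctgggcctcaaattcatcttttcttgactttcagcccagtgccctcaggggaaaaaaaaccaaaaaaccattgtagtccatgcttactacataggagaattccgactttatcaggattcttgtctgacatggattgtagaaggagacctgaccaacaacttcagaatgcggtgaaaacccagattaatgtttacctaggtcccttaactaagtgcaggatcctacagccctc
Gsto1, chr19:47854723-47854972, plus strand: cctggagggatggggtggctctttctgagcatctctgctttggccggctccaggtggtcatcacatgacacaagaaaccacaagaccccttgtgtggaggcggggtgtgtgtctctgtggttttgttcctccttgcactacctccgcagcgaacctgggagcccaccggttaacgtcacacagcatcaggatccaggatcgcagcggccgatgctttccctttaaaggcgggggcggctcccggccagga
Gsto2, chr19:47865295-47865544, plus strand: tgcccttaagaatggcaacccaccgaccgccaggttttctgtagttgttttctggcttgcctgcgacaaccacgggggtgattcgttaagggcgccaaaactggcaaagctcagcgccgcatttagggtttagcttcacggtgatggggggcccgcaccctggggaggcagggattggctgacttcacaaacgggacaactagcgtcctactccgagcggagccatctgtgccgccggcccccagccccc
Cyp1a1, chr9:57697363-57697612, plus strand: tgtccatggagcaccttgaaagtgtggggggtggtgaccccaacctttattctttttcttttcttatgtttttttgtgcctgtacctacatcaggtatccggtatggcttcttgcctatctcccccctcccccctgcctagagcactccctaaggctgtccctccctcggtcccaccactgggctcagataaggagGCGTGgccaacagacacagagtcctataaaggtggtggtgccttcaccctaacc
Sult2b1, chr7:45759613-45759862, minus strand: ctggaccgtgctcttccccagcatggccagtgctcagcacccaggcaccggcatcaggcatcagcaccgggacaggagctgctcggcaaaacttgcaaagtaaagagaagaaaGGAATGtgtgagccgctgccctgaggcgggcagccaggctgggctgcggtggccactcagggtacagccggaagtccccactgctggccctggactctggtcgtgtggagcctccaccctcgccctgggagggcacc

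RefSeq gave an upstream sequence for 125 of the 150 members and for 27025 genes in all, counting 1 start a gene. Both strands were searched for 6 motifs, each counted whether or not it overlapped another. The HNF4 site CAAAGTCCA lay upstream of 10 members, or 8% of those with a sequence, and of 0.381% of all genes. All 10 were Cyp2c or Cyp3a genes, related copies with few or no reads here. Only 1 of them, Cyp2c69, was tested, so this motif could not be set against the calls. The nuclear receptor half-site AGGTCA was present in 22.4% of the members and 13.8% of all genes. The site of TEAD factors, the DNA-binding partners of YAP, GGAATG, was present in 13.6% of the members and 12.6% of all genes. The AP-1 site TGANTCA was found in 12% of the members and 6.87% of all genes. The antioxidant response core TGACNNNGC was found in 2.4% of the members and 10.1% of all genes, and the xenobiotic response core GCGTG in 14.4% and 28.2%. In the printed sequences, Ugt1a10 has a TEAD site starting 202 bases before the start. Sult2b1 has a TEAD site starting 137 bases before the start shown, which is 1 of its RefSeq starts. The window of its other start, not shown, holds no TEAD site. It holds an AP-1 site and a xenobiotic response core, starting 151 and 118 bases before that start. Cyp1a1 has a xenobiotic response core starting 54 bases before the start, while the windows of Ugt1a2, Gsto1 and Gsto2 hold none of these letters. A match describes the letters only, and its absence says nothing of the factor.

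Levels are given as scaled RPKM, that is reads per kilobase and per 1e6 reads of the library, corrected for library composition. Where 4 values are listed for a genotype, they are male replicate 1, male replicate 2, female replicate 1 and female replicate 2. Libraries with replicate number 1 held 78.2 to 87.1 and those with number 2 held 22.8 to 25.2, in units of 1e6 reads. Yap1 itself averaged 35.5 ± 0.78 scaled RPKM in YAP kidneys and 35.5 ± 3.70 in Ctrl kidneys (SD, n = 4 each), and its log2 fold change was 0.01 (adjusted p = 0.959, limma). The labels do not say whether reads of the YAP allele would be counted under Yap1. Kidney segment markers were present in every library.

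Of the 150 members, 79 had enough reads to be tested and 71 did not, among them 26 with no read in any library. Between genotypes, 31 members were lower in YAP kidneys and 8 were higher, at an adjusted p under 0.05 in limma over all 18156 tested genes. Over all tested genes 12.9% were lower and 13.3% were higher. The tested members thus had lower calls in 39.2% and higher calls in 10.1%. Of the 8 higher members 1, Cyp4x1os, passed the filter on low reads through YAP libraries only, and of the 31 lower members 1, Cyp1a1, passed through Ctrl libraries only. Each was tested only because of the genotype in which it was higher, so neither call is support for a difference. Among members not called, Cyp4f39 and Gstp2 also passed through YAP libraries only. Cyp2d12 and Cyp4a32, not called either, passed through Ctrl libraries only. Here a genotype counts if 2 or more of its libraries reached the filter. Values of the genotypes did not overlap for 36 of the 79 tested members, or 45.6%, and for 30.4% of all tested genes. The median log2 fold change, YAP over Ctrl, was -0.31 over the tested members and 0.01 over all tested genes. The 8 Ugt1a genes share most of their reads, as described below, and with that locus counted once the figures were 25 lower and 8 higher of 72, with a median of -0.28.

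Markers of other cell types moved with genotype in the same libraries. Of 22 proximal tubule markers, 20 were lower in YAP kidneys and 0 were higher, with a median log2 fold change of -1.84. Their summed level ran from 772 to 988 scaled RPKM in YAP kidneys and from 3070 to 3388 in Ctrl kidneys. In bulk RNA, fewer cells of a type and less RNA per cell cannot be told apart. None of the 150 members is in this marker list, and 4 of the 31 lower members fell by more than its median. All 7 macrophage markers were higher, with sums of 192 to 223 in YAP kidneys and 50.3 to 62.6 in Ctrl kidneys. The part of these shifts in the members' changes was not tested.

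By family, the counts are set beside the shares of all tested genes, 12.9% lower and 13.3% higher. Of 4 tested Fmo genes, 3 were lower and 0 were higher, or 75% and 0%. In the Gst family 10 were lower and 1 was higher of 19, or 52.6% and 5.26%, with a median log2 fold change of -0.34. In the Ugt family 9 were lower and 0 were higher of 15, or 60% and 0%. With the Ugt1a locus counted once they were 3 and 0 of 8, or 37.5% and 0%. Among 33 tested Cyp genes 7 were lower and 5 were higher, or 21.2% and 15.2%, with a median of -0.11. Their higher share was near the 13.3% of all tested genes. Among 8 tested Sult genes 2 were lower and 2 were higher, or 25% and 25%, with a median of 0.03.

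**Figure D1:**
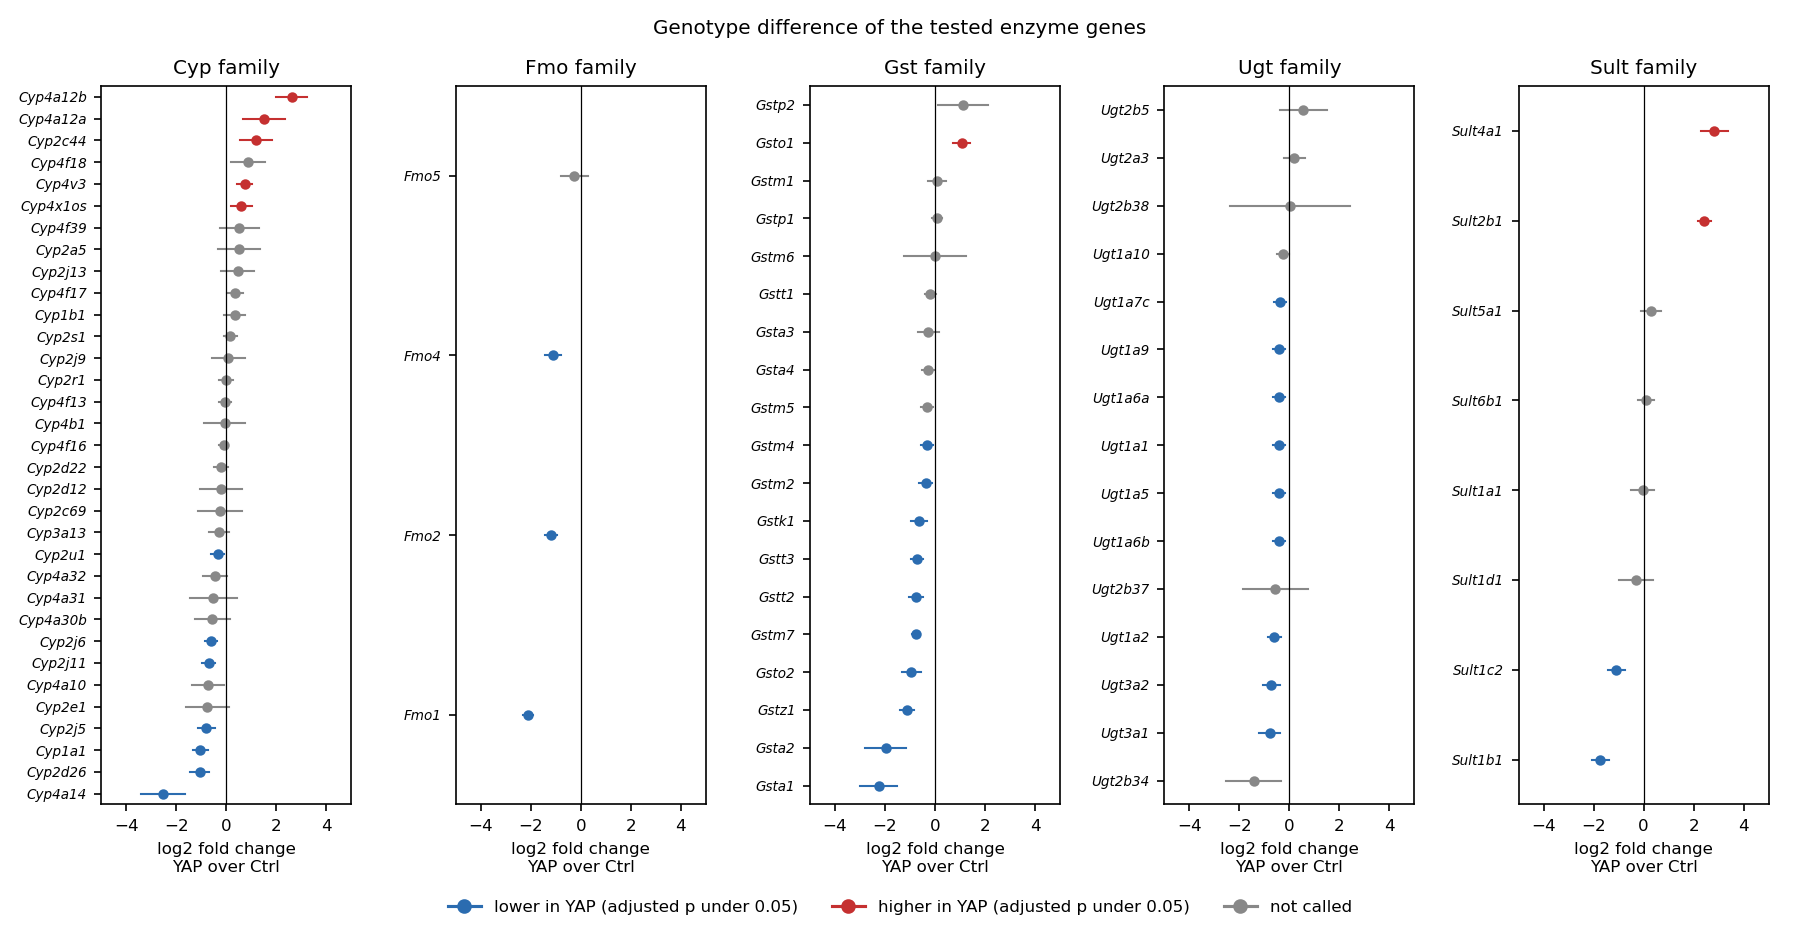
Log2 fold change (x axis, YAP over Ctrl) of each of the 79 tested members, 1 panel a family, with points for the estimate and lines for the 95% interval from limma. Blue marks the 31 members lower in YAP kidneys, red the 8 higher and grey the 40 not called; the Fmo points lie left of 0, and the Sult points fall on both sides of it.

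The largest median change, a log2 fold change of -1.15, was in the flavin-containing monooxygenases, which oxidise nitrogen and sulfur atoms in drugs. Fmo1 had 18.3, 17.8, 18.3 and 16.7 scaled RPKM in YAP kidneys, against 66.9, 83.6, 76.8 and 84.1 in Ctrl kidneys. Every YAP library lay far below every Ctrl library, and Fmo1 was 4.34-fold lower (log2 fold change -2.12, SE 0.09, adjusted p = 2.41e-06, limma). Fmo2, a relative best known from lung, had 8.71, 10.2, 11.3 and 8.99 in YAP kidneys, against 20.4, 24.2, 22.8 and 22.3 in Ctrl kidneys. Its genotypes did not overlap either, with a log2 fold change of -1.19 (adjusted p = 6.67e-05). Fmo4 was expressed at 0.315 ± 0.0604 in YAP kidneys and 0.782 ± 0.0347 in Ctrl kidneys (SD, n = 4 each), a log2 fold change of -1.10 (adjusted p = 0.00058). These 3 genes are neighbours on chromosome 1 (GENCODE, GRCm38), between bases 162793188 and 162898726. Fmo5, on chromosome 3, averaged 0.769 ± 0.319 in YAP kidneys and 0.922 ± 0.334 in Ctrl kidneys and was not called (log2 fold change -0.25, adjusted p = 0.496). Fmo6 had 21 reads and Fmo9 had 11 reads over the 8 libraries, and neither was tested.

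Summed over the family, Fmo genes reached 28.7 ± 1.56 scaled RPKM in YAP kidneys and 102 ± 9.51 in Ctrl kidneys. Fmo1 made up 62.0% of this sum in YAP kidneys and 76.2% in Ctrl kidneys.

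**Figure D2:**
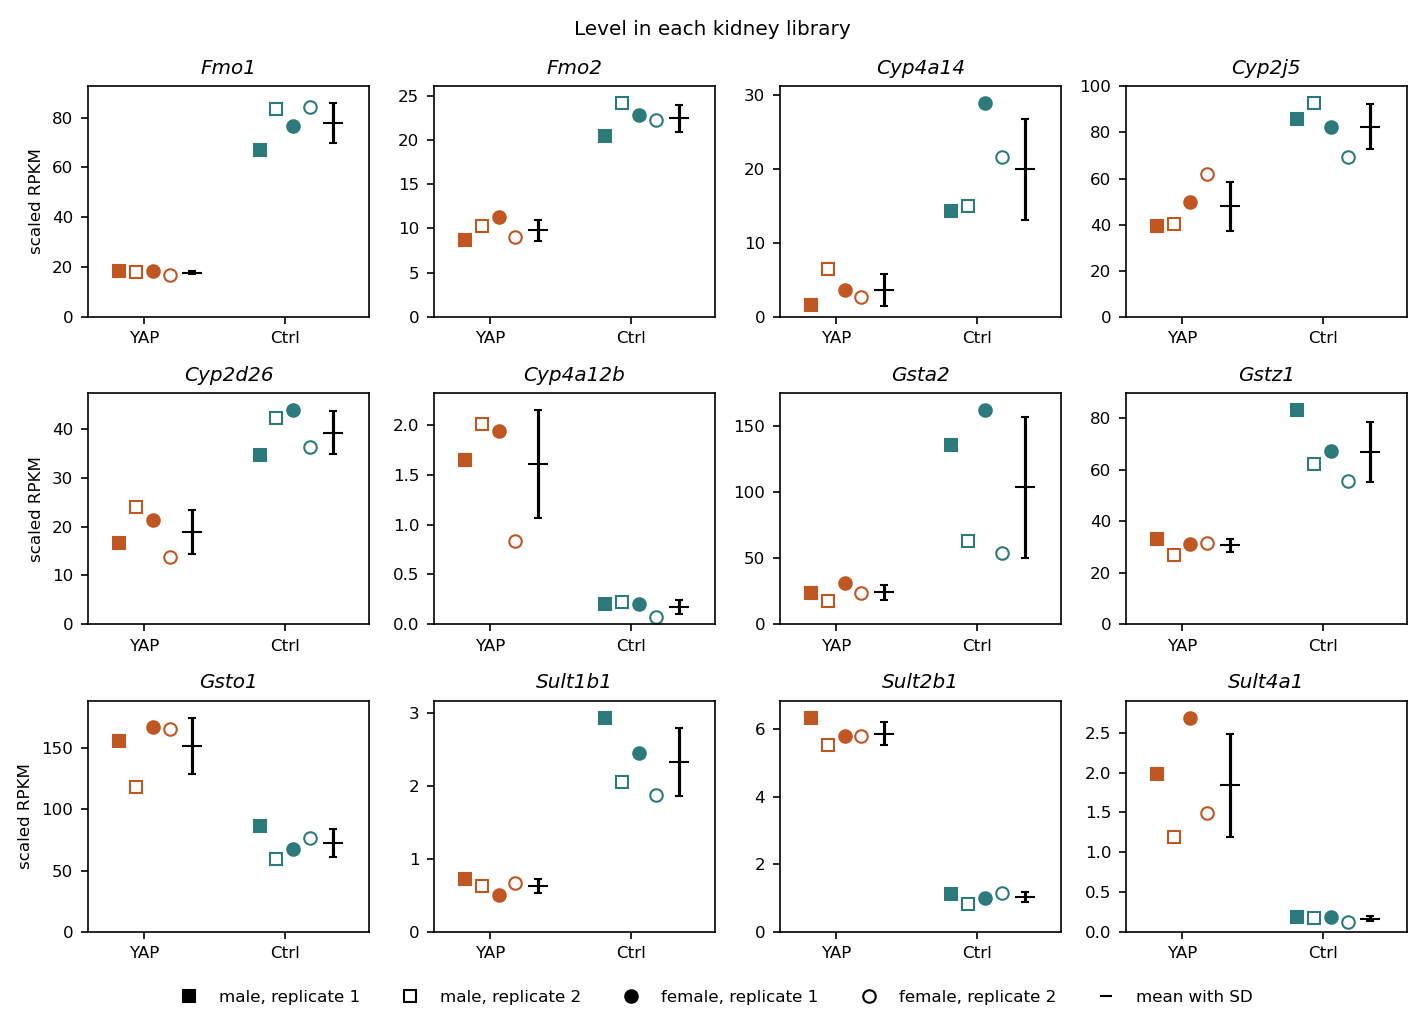
Scaled RPKM (y axis, from 0) of 12 members in each library, YAP at the left and Ctrl at the right of each panel. Squares are male and circles female, and filled symbols are replicate 1 and open symbols replicate 2. The bar beside each group is the mean with its SD (n = 4). In none of the 12 genes do the genotypes overlap, which follows from their choice among called members without overlap. The Ctrl values of Gsta2 split by replicate number.

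Cytochromes P450 held calls in both directions, the higher ones at a share near that of all tested genes. Within the Cyp4a cluster of fatty acid hydroxylases on chromosome 4, calls were of both signs. Cyp4a14, an omega-hydroxylase of fatty acids, had 1.67, 6.54, 3.70 and 2.63 scaled RPKM in YAP kidneys, against 14.3, 15, 28.9 and 21.6 in Ctrl kidneys. The genotypes did not overlap, and the gene was 5.80-fold lower (log2 fold change -2.54, SE 0.38, adjusted p = 0.00162). In the replicate 2 libraries alone its log2 fold change was -2.10, with an adjusted p of 0.418. Cyp4a12b had 1.65, 2.01, 1.94 and 0.834 in YAP kidneys, against 0.203, 0.227, 0.206 and 0.0709 in Ctrl kidneys. Here the YAP libraries were all higher, by 6.07-fold (log2 fold change 2.60, SE 0.27, adjusted p = 0.000204). Its close copy Cyp4a12a, the main 20-HETE-forming enzyme of the adult male mouse kidney, averaged 0.481 ± 0.24 in YAP kidneys and 0.105 ± 0.0788 in Ctrl kidneys (SD, n = 4 each; log2 fold change 1.50, adjusted p = 0.0172). Of the 50-base windows of their transcripts, 48.9% of those in Cyp4a12a also occur in Cyp4a12b, so reads could be split between the copies or left out, and which of them rose is uncertain.

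The 2 Cyp4a genes with the highest mean level did not pass the test. Cyp4a10 had 13.0, 30.2, 30.6 and 15.5 scaled RPKM in YAP kidneys, against 28.1, 30.5, 43.0 and 40.3 in Ctrl kidneys. The values overlapped, with a log2 fold change of -0.75 (adjusted p = 0.0904). It shares 30.5% of its 50-base windows with other genes. Cyp4a31 averaged 12.8 ± 8.43 in YAP kidneys and 16.3 ± 4.61 in Ctrl kidneys (SD, n = 4 each; log2 fold change -0.52, adjusted p = 0.416). Both passed the test without Male YAP replicate 2, where their adjusted p-values were 0.0122 for Cyp4a10 and 0.0396 for Cyp4a31. Of the 7 tested Cyp4a genes, 1 was lower and 2 were higher in YAP kidneys.

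Of the Cyp2j genes, also on chromosome 4, 3 of 5 tested were lower and 0 were higher. Cyp2j5, an epoxygenase of arachidonic acid and the most abundant of the Cyp members, had 39.5, 40.4, 49.7 and 62.0 scaled RPKM in YAP kidneys, against 85.7, 92.7, 82.4 and 69.3 in Ctrl kidneys. The groups did not overlap, although the highest YAP value and the lowest Ctrl value, both from female replicate 2, were close. Its log2 fold change was -0.80 (SE 0.15, adjusted p = 0.00579), and in the replicate 2 libraries alone it was -0.69 with an adjusted p of 0.235. Cyp2j11 averaged 3.67 ± 0.256 in YAP kidneys and 6.10 ± 0.871 in Ctrl kidneys (log2 fold change -0.71, adjusted p = 0.00231). Cyp2j6 averaged 4.64 ± 0.128 in YAP kidneys and 7.27 ± 0.897 in Ctrl kidneys (log2 fold change -0.63, adjusted p = 0.00228). Their neighbours Cyp2j9 and Cyp2j13 were not called, with log2 fold changes of 0.07 and 0.45. At most 1.34% of the 50-base windows of these 5 genes occur in another gene.

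**Figure D3:**
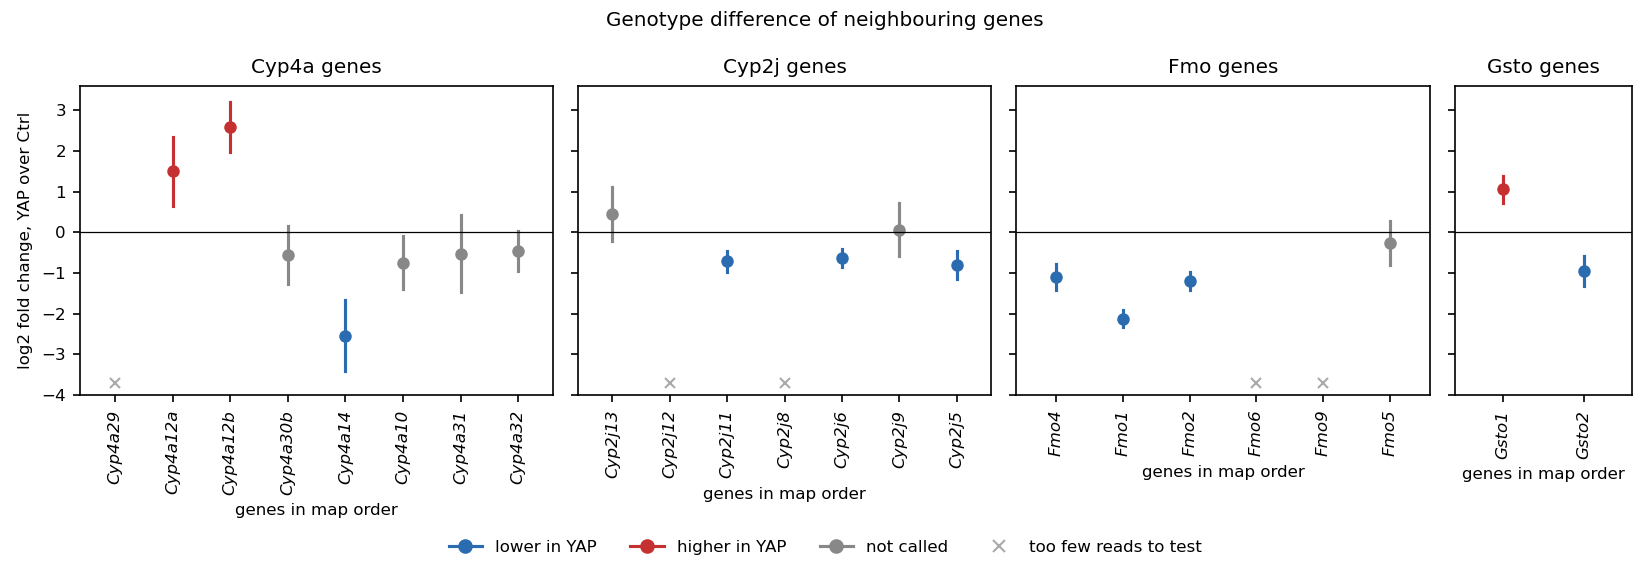
Log2 fold change (y axis, YAP over Ctrl) of Cyp4a, Cyp2j, Fmo and Gsto genes in their order along the chromosomes, with points for the estimate and lines for the 95% interval from limma; crosses at the foot of a panel mark genes with too few reads to test. Red points lie above 0 and blue points below it inside both the Cyp4a and the Gsto clusters; Fmo5, the last Fmo gene, is on chromosome 3.

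Outside these clusters, Cyp2d26, from the subfamily that in human holds the drug-oxidising CYP2D6, was lower in YAP kidneys, at 16.5, 24.0, 21.3 and 13.8 scaled RPKM, against 34.7, 42.3, 43.7 and 36.2 in Ctrl kidneys. The genotypes were well apart (log2 fold change -1.07, SE 0.17, adjusted p = 0.00225). Cyp1a1, which oxidises polycyclic aromatic compounds, was measured at a very low level, 0.0368 ± 0.00709 in YAP kidneys and 0.185 ± 0.0354 in Ctrl kidneys (SD, n = 4 each). It had 142 reads in all libraries together and passed the filter through Ctrl libraries only, so these values are a description. Its log2 fold change of -1.05 is understated by the pseudocount of 0.1. Cyp1b1, another target of the aryl hydrocarbon receptor, averaged 7.83 ± 1.54 in YAP kidneys and 6.19 ± 1.42 in Ctrl kidneys and was not called (adjusted p = 0.222). Cyp2u1, a hydroxylase of long-chain fatty acids, had a log2 fold change of -0.36 (adjusted p = 0.043).

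Higher P450 genes were all expressed at low to moderate levels. Cyp4v3, whose human counterpart CYP4V2 is a fatty acid hydroxylase mutated in a retinal dystrophy, had 3.22, 4.17, 3.75 and 2.70 scaled RPKM in YAP kidneys, against 2.06, 1.97, 2.20 and 1.90 in Ctrl kidneys. All YAP values exceeded all Ctrl values (log2 fold change 0.72, SE 0.14, adjusted p = 0.00491). Cyp2c44, an arachidonic acid epoxygenase, averaged 0.699 ± 0.19 in YAP kidneys and 0.262 ± 0.129 in Ctrl kidneys (log2 fold change 1.18, adjusted p = 0.0139). The antisense gene Cyp4x1os had 67 reads in all and a log2 fold change of 0.60, with overlapping genotypes. It passed the filter through YAP libraries only, so its call is no evidence of a difference. The strand setting of the counting is not given in the sources used here. Its reads therefore cannot be told apart from those of the opposite strand. Cyp2e1, the ethanol-oxidising P450, averaged 0.809 ± 0.387 in YAP kidneys and 1.37 ± 0.557 in Ctrl kidneys and was not called (adjusted p = 0.189).

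Many P450 genes best known from liver were at the edge of detection. Of the 48 untested Cyp genes, 15 had no read and the other 33 had at most 43 reads over the 8 libraries. For 19 of these 33 the highest scaled level was in Female YAP replicate 2. Some of these peaks rest on 1 or 2 reads, and a read weighs more there than in the larger replicate 1 libraries. The 33 genes had 82 reads in Female YAP replicate 2, against 14 to 28 in the other replicate 2 libraries. Female YAP replicate 2 also stood apart for liver markers. Their sum was 101 scaled RPKM there, against 13.8 to 34.5 in the other YAP libraries and 14.6 to 20.7 in the Ctrl libraries. Albumin, Alb, reached 37.1 in it, while the other YAP libraries had 0.0483 to 1.76 and the Ctrl libraries had 0.162 to 0.315. Not every liver marker peaked there, and Fga, Fgb, Serpina1a and Apoa2 were highest in other libraries. Fga had 12.9 in Male YAP replicate 2 and 5.26 in Female YAP replicate 2. The 33 Cyp genes summed to 1.67 scaled RPKM in Female YAP replicate 2. They summed to 0.384 to 0.486 in the other YAP libraries and 0.305 to 0.593 in the Ctrl libraries. The part of liver RNA in these low P450 levels was not tested. Without this library, 25 members were lower and 10 were higher.

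**Figure D4:**
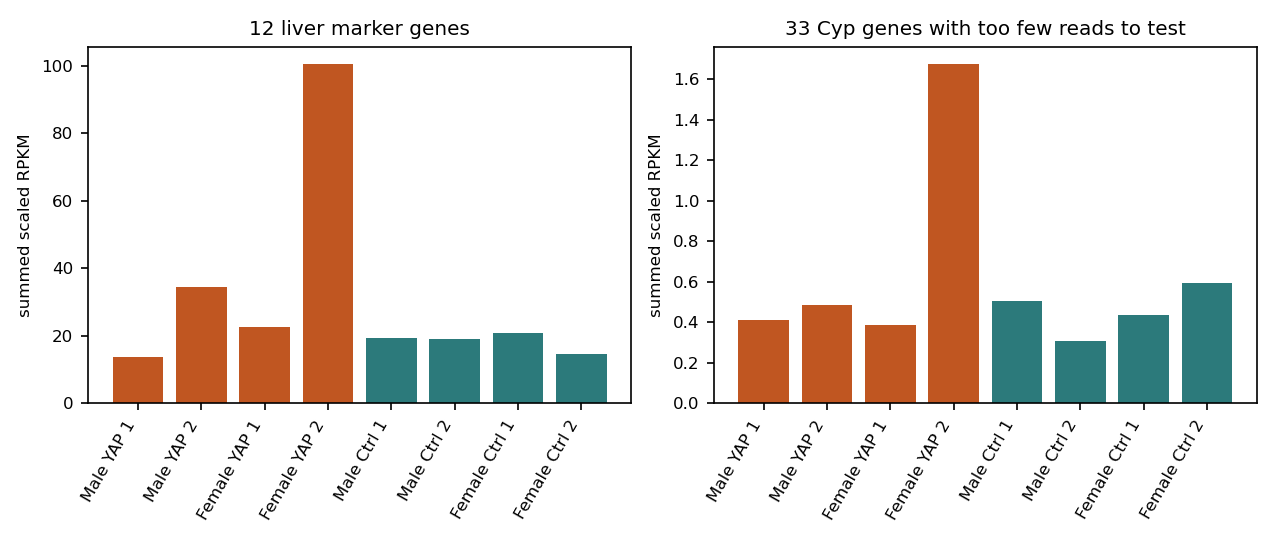
Summed scaled RPKM (y axes, from 0) of 12 liver marker genes and of the 33 Cyp genes that had reads but too few to test, 1 bar a library, YAP in orange at the left and Ctrl in green at the right. Female YAP replicate 2 has the highest bar in both panels, at 101 and 1.67.

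Glutathione S-transferases, which couple glutathione to reactive compounds, were summed over their members in each library. The family summed to 735 ± 39.8 scaled RPKM in YAP kidneys and 894 ± 97.8 in Ctrl kidneys (SD, n = 4 each). The largest falls were in the alpha class. Gsta2 had 23.8, 17.4, 30.9 and 23.8 scaled RPKM in YAP kidneys, against 135, 62.9, 161 and 53.8 in Ctrl kidneys. The genotypes did not overlap, and the Ctrl libraries split by replicate number, with both replicate 1 values well above both replicate 2 values. The log2 fold change was -1.98 (SE 0.36, adjusted p = 0.00426), or -2.44 in the replicate 1 libraries and -1.52 in the replicate 2 libraries. Gsta1 averaged 0.943 ± 0.404 in YAP kidneys and 4.77 ± 1.33 in Ctrl kidneys (log2 fold change -2.26, adjusted p = 0.00106). Gsta1 shares 89.7% of its 50-base windows with other genes, most with Gm3776 at 82.9%. Gsta2 shares 64.2%, most with Gsta1 at 44.8%. The division of reads among these genes is therefore uncertain. Gsta4, which clears the lipid peroxidation product 4-hydroxynonenal, averaged 97.3 ± 14.5 in YAP kidneys and 118 ± 5.21 in Ctrl kidneys and was not called (log2 fold change -0.29, adjusted p = 0.085).

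Omega-class genes on chromosome 19 moved in opposite directions. Gsto1, which reduces dehydroascorbate, had 156, 118, 168 and 166 scaled RPKM in YAP kidneys, against 86.5, 59.8, 67.4 and 76.7 in Ctrl kidneys. It was the only tested Gst gene called higher, with every YAP value above every Ctrl value (log2 fold change 1.06, SE 0.14, adjusted p = 0.000899). Gsto2, whose start lies 744 bases after the end of Gsto1 in GENCODE, had 0.417, 0.546, 0.393 and 0.393 in YAP kidneys, against 1.20, 0.749, 0.968 and 0.852 in Ctrl kidneys. Its values did not overlap either (log2 fold change -0.95, SE 0.16, adjusted p = 0.00306), and the replicate 2 libraries alone gave an adjusted p of 0.129.

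Other glutathione transferases fell more modestly. Gstz1, the maleylacetoacetate isomerase of tyrosine breakdown, had 33.2, 27.0, 31.1 and 31.5 scaled RPKM in YAP kidneys, against 83.1, 62.1, 67.2 and 55.7 in Ctrl kidneys. The genotypes were clearly separate (log2 fold change -1.11, SE 0.13, adjusted p = 0.000355). Of the mu class, 3 of 6 tested genes were lower. Gstm7 averaged 4.88 ± 0.138 in YAP kidneys and 8.37 ± 0.776 in Ctrl kidneys (log2 fold change -0.76, adjusted p = 0.000194). Gstm2 and Gstm4 were called at log2 fold changes of -0.38 and -0.34, with adjusted p-values of 0.0481 and 0.0435 and with overlapping genotypes. Gstm2 lost its call whichever library other than Male Ctrl replicate 1 was left out, and on the RPKM as deposited (adjusted p = 0.0634). Gstm5, the most abundant of the class, averaged 110 ± 7.26 in YAP kidneys and 139 ± 21.3 in Ctrl kidneys and just missed the threshold (log2 fold change -0.33, adjusted p = 0.0517). It was called lower under 9 of the alternatives, among them the RPKM as deposited (adjusted p = 0.0356), median-of-ratios scaling (adjusted p = 0.041) and voom (adjusted p = 0.0335). Gstt2, Gstt3 and the mitochondrial and peroxisomal Gstk1 were lower, with log2 fold changes of -0.76, -0.73 and -0.65. Gstp1 averaged 81.7 ± 6.84 in YAP kidneys and 76.9 ± 5.34 in Ctrl kidneys and was not called (log2 fold change 0.09, adjusted p = 0.555); it shares 62.3% of its 50-base windows with Gstp2.

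Glucuronosyltransferases of the Ugt1a locus on chromosome 1 are spliced from alternative first exons onto common last exons. In GENCODE 1311 exon bases belong to all 8 Ugt1a genes, and the deposited values for these genes hold nearly the same reads, 145899 to 177389 per gene over the 8 libraries. Their 7 lower calls are therefore close to a single measurement. Over the whole Ugt family, lower calls numbered 3 without Female Ctrl replicate 1, Male Ctrl replicate 2 or Male YAP replicate 2, each left out alone, and 4 without Female YAP replicate 2. Ugt1a1, the bilirubin-conjugating enzyme, averaged 90.1 ± 9.64 scaled RPKM in YAP kidneys and 120 ± 11.7 in Ctrl kidneys (SD, n = 4 each; log2 fold change -0.41, adjusted p = 0.0217). Ugt1a10, the 1 gene of the locus that was not called, had a log2 fold change of -0.24 (adjusted p = 0.129).

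To look past the common exons, the lowest count among the 8 genes was subtracted in each library. This leaves a lower bound on each gene's reads outside the exons common to all 8. Such reads can still be shared with some of the other Ugt1a genes. Of the 50-base windows of Ugt1a6b, for example, 80.7% occur in Ugt1a7c, common exons included. Ugt1a2 then had 36.5, 37.0, 50.7 and 28.9 reads per 1e6 in YAP kidneys, against 91.2, 121, 120 and 114 in Ctrl kidneys. All YAP values lay below all Ctrl values, and the mean was 2.91-fold lower. Ugt1a10 had 80.3, 72.7, 73.3 and 66.8 reads per 1e6 in YAP kidneys, against 37.0, 53.2, 41.1 and 44.8 in Ctrl kidneys, so here every YAP value was above every Ctrl value and the ratio of means was 1.66. Ugt1a7c averaged 11.5 ± 2.50 in YAP kidneys and 6.49 ± 2.07 in Ctrl kidneys, with overlapping values. Ugt1a9 averaged 1.70 ± 0.756 in YAP kidneys and 0.874 ± 0.217 in Ctrl kidneys, and Ugt1a6a 1.44 ± 0.523 in YAP kidneys and 1.03 ± 0.151 in Ctrl kidneys, each with overlapping values. Ugt1a1 averaged 0.940 ± 0.257 in YAP kidneys and 1.10 ± 0.284 in Ctrl kidneys. Ugt1a6b and Ugt1a5 had 45 and 9 such reads over the 8 libraries. Two-sided exact permutation tests, chosen after the reads were seen and run on all 8 genes, gave p = 0.0286 for Ugt1a2, p = 0.0286 for Ugt1a10 and p = 0.0571 for Ugt1a7c, where 0.0286 is the smallest value that 4 against 4 libraries allow. Over the other 5 genes the exact values ran from 0.114 to 1. Adjusted over the 8 tests by Benjamini-Hochberg, the exact values were 0.114 for Ugt1a2 and Ugt1a10 and 0.152 for Ugt1a7c. None was under 0.05. With 8 such tests a gene can pass only if most of the 8 genes reach the smallest exact value. These adjusted values therefore decide nothing about Ugt1a2 or Ugt1a10. The lowest count itself averaged 290 ± 27.5 reads per 1e6 in YAP kidneys and 385 ± 38.7 in Ctrl kidneys.

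**Figure D5:**
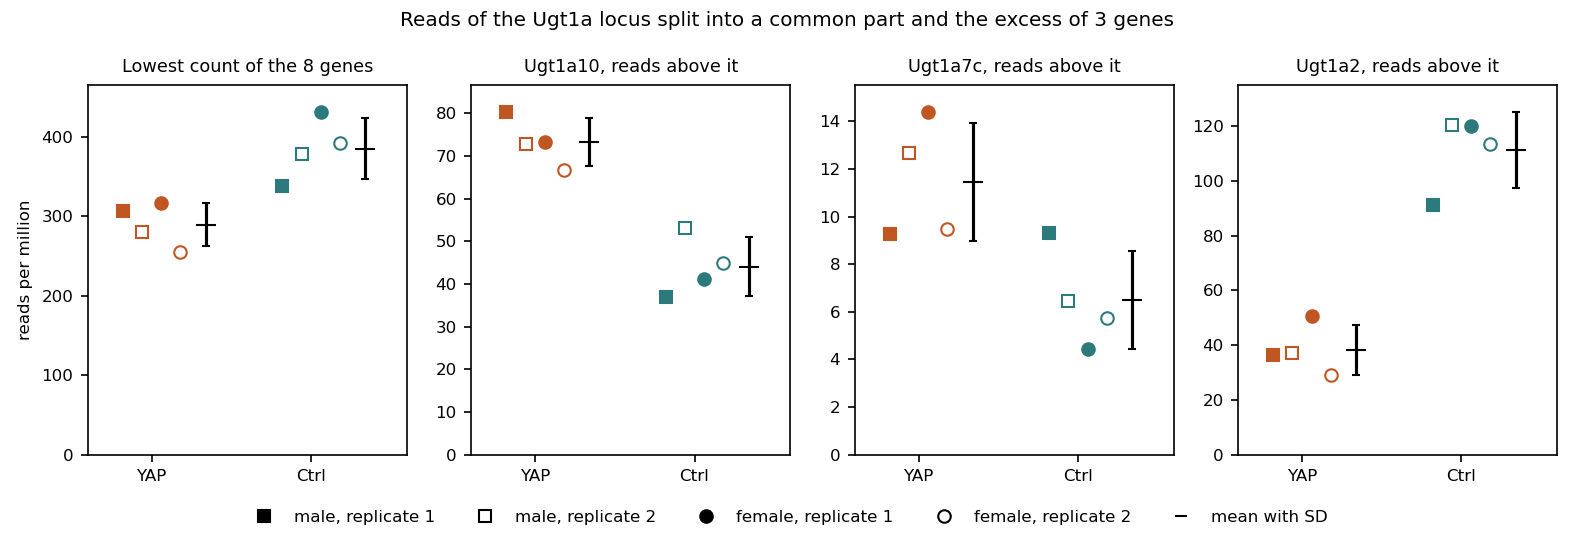
Reads per 1e6 (y axes, from 0) at the Ugt1a locus in each library, YAP at the left and Ctrl at the right: the lowest count of the 8 genes, then the reads of Ugt1a10, Ugt1a7c and Ugt1a2 above it. Symbols mark sex and replicate number and the bars are means with SD (n = 4); YAP values are above Ctrl values for Ugt1a10, overlap them for Ugt1a7c and lie below them for Ugt1a2.

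Outside the Ugt1a locus, both Ugt3a genes on chromosome 15 were lower. Ugt3a2 had 9.57, 6.17, 7.54 and 7.03 scaled RPKM in YAP kidneys, against 12.6, 16.0, 11.6 and 10.2 in Ctrl kidneys. The highest YAP value was just under the lowest Ctrl value (log2 fold change -0.72, SE 0.15, adjusted p = 0.00825). Ugt3a1, which in human transfers N-acetylglucosamine rather than glucuronic acid, averaged 0.494 ± 0.149 in YAP kidneys and 0.915 ± 0.228 in Ctrl kidneys (log2 fold change -0.79, adjusted p = 0.014). None of 4 tested Ugt2b genes was called. Ugt2b34 had 2.58, 1.83, 3.02 and 5.49 in YAP kidneys, against 11.1, 12.7, 9.82 and 3.16 in Ctrl kidneys. Its genotypes overlapped through the pair of female replicate 2 libraries (log2 fold change -1.42, adjusted p = 0.0616).

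Sulfotransferases gave 2 of the 3 steepest rises among the members, with Cyp4a12b. Sult2b1, which sulfates cholesterol and other sterols, had 6.34, 5.53, 5.80 and 5.81 scaled RPKM in YAP kidneys, against 1.13, 0.823, 1.00 and 1.14 in Ctrl kidneys. The libraries of each genotype lay close together, and Sult2b1 was 5.35-fold higher (log2 fold change 2.42, SE 0.12, adjusted p = 3.6e-06). Sult4a1, a brain-enriched relative with little known activity, had 1.98, 1.19, 2.69 and 1.50 in YAP kidneys, against 0.188, 0.166, 0.181 and 0.118 in Ctrl kidneys. It was low in every Ctrl library and 7.10-fold higher in YAP kidneys (log2 fold change 2.83, SE 0.24, adjusted p = 6.72e-05).

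Sult1b1, which acts on thyroid hormones and small phenols, went the other way, at 0.724, 0.628, 0.501 and 0.665 in YAP kidneys, against 2.94, 2.05, 2.45 and 1.88 in Ctrl kidneys. Its genotypes did not overlap (log2 fold change -1.73, SE 0.15, adjusted p = 9.26e-05). Sult1c2 averaged 13.9 ± 2.63 in YAP kidneys and 29.7 ± 5.24 in Ctrl kidneys (log2 fold change -1.09, adjusted p = 0.000823). Sult1d1, the most abundant Sult gene, ranged from 29.1 to 87.6 in YAP kidneys and from 43.6 to 79.9 in Ctrl kidneys and was not called (log2 fold change -0.31, adjusted p = 0.523). Sult1a1 averaged 2.45 in both genotypes (adjusted p = 0.921), and Sult5a1 and Sult6b1 were not called either.

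No member was called between the sexes, male over female, where 1 of 79, or 1.27%, reached an unadjusted p under 0.05, against 504 of all 18156 tested genes, or 2.78%, and voom on reads worked back from the RPKM also called 0. Over all tested genes 0.033% were called. Nor was any member called for an interaction of genotype and sex, where 7 of 79, or 8.86%, reached an unadjusted p under 0.05, against 545 of all tested genes, or 3.00%, voom called 0 and 0% of all tested genes were called. The largest interaction was that of Ugt2b38, with genotype differences of -2.23 in males and 2.29 in females on the log2 scale, at 558 reads in all. Cyp4a12a is known to depend on male hormones in adult mouse kidney. The median half-width of the 95% interval, not adjusted for the number of genes, was 0.35 for sex and 0.69 for the interaction. Differences below that size could go unseen. Calls needed an adjusted p under 0.05 over all tested genes, so larger differences could also go uncalled, as that of Ugt2b38 did.

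Genes around the 5 families were read from lists, beside 12.9% lower and 13.3% higher over all tested genes. Of 23 tested nuclear receptors and other factors of drug metabolism, 8 were lower and 1 was higher, with a median log2 fold change of -0.08. Nr1i2, the pregnane X receptor that senses drugs, averaged 0.598 ± 0.151 scaled RPKM in YAP kidneys and 1.36 ± 0.111 in Ctrl kidneys (log2 fold change -1.09, adjusted p = 0.00229). The bile acid receptor Nr1h4 and the fatty acid receptor Ppara, which drives Cyp4a genes, had log2 fold changes of -0.98 and -0.96. Other lower factors were Hnf4a, Ppargc1a, Nr1i3 and Rxra, of which Hnf4a is also in the proximal tubule list. Cebpb, a factor of the acute phase, was the higher one, at 31.1 ± 5.67 in YAP kidneys and 9.47 ± 1.71 in Ctrl kidneys (log2 fold change 1.70, adjusted p = 0.000101).

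Partners and cofactor supply were read in the same way. Por, the reductase that hands electrons to every microsomal P450, averaged 28.5 ± 1.54 in YAP kidneys and 40.3 ± 1.42 in Ctrl kidneys (log2 fold change -0.50, adjusted p = 0.00105). With it Fdxr and Cyb5b were lower, which made 3 of 7 electron donors lower and 0 higher. Of 6 genes of glucuronic acid supply, Ugdh alone was called, and it was higher, at 46.9 ± 1.65 in YAP kidneys and 33.4 ± 2.28 in Ctrl kidneys (log2 fold change 0.49, adjusted p = 0.00162). Sulfate donor genes were lower in 4 of 8 and higher in 0, among them Bpnt1 at -0.64 and the donor synthase Papss1 at -0.39. Glutathione genes split, with 6 lower and 4 higher of 16. Chac1, which degrades glutathione, was among the higher ones at 2.58, and Dpep1, which cleaves its products outside the cell, among the lower ones at -2.29.

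Among 32 other phase I and phase II enzymes, 15 were lower and 1 was higher, with a median log2 fold change of -0.35. Akr1b7, an aldehyde-reducing enzyme, averaged 5.37 ± 0.581 in YAP kidneys and 21.3 ± 1.53 in Ctrl kidneys (log2 fold change -1.97, adjusted p = 3.16e-06), and the epoxide hydrolase Ephx2 had a log2 fold change of -1.29. Drug transporters were split, with 9 lower and 7 higher of 22 and a median log2 fold change of 0.06. Those with the lowest p, from which the named ones come, were lower ones. The organic anion transporter Slc22a8 averaged 3.78 ± 0.386 in YAP kidneys and 25.4 ± 6.79 in Ctrl kidneys (log2 fold change -2.68, adjusted p = 1.54e-05). It and Slc22a6, with a log2 fold change of -1.89, are also proximal tubule markers.

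The 39 called members kept their sign in both the replicate 1 and the replicate 2 libraries. For members whose genotypes did not overlap, any such subset had to give the same sign. Of the 39, 28 stayed past the threshold whichever of the 8 libraries was left out. All 39 were called from these same libraries, so these counts are no independent support. Of the 39, 29 were called in the replicate 1 libraries alone and 32 in the replicate 2 libraries alone, 24 of them in both.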

How the data were processed

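Poly(A) RNA of 8 kidney libraries was read. The authors deposited RPKM values per gene symbol with gene lengths, made with STAR, featureCounts and mm10 per the submitters' processing notes; no source used here gives versions, the strand setting or the handling of shared reads. RPKM multiplied by length came out whole (within 0.01 of a read) for all 179720 nonzero values, which gave reads and totals; listed genes held 96.7% to 97.1% of each total. RPKM was divided by trimmed-mean factors (0.968 to 1.03; trims 0.3 and 0.05). Genes with 15 reads in total, and 0.2 reads per 1e6 or more in 2 or more libraries, were tested with limma 3.58.1 in R 4.3.3 on log2(scaled RPKM + 0.1), a scale that understates changes of low genes, with genotype and sex as terms, empirical Bayes with trend and robust options, and Benjamini-Hochberg adjustment over 18156 genes at 0.05. The interaction came from group means. Other calculations used Python 3.11.15, and the fitting was tested on simulated data.

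Members and gene lists were chosen with earlier results of these data known. Named members were, per family, the 5 most abundant and up to 5 largest falls and rises among called members whose genotypes did not overlap and whose mean reached 0.5 scaled RPKM; other members were named where a count of 5 or fewer held them or, as with Cyp2c44, Cyp1a1, Cyp2e1 and Ugt2b34, after their values were seen. Up to 4 genes a list with the lowest p were named, and other nuclear receptors and factors called were named after their values were seen. Alb, Fgb and Serpina1a of the liver list were named outside this rule. Some genes are not reported here. Shared 50-base windows came from GENCODE vM21 transcripts. Alternatives were 2 other pseudocounts, 2 other scalings, 2 other filters, voom on the reads, no trend or robust options, no sex term, a replicate block, each replicate number alone and each library left out; counting Ugt1a once was added after seeing the data. Markers of adrenal cortex, other nephron segments, urothelium, stroma and fat were also read: distal convoluted tubule 6 lower and 1 higher of 8, thick ascending limb 5 and 0 of 6, collecting duct 6 and 0 of 8, urothelium 3 and 0 of 6, stroma and endothelium 3 and 0 of 8, adrenal cortex 0 and 1 of 4, fat 0 and 1 of 6, liver 0 and 1 of 8.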

Additional observations from a re-analysis of the deposited data

Results flagged for a closer look

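Of 76 groups of 4 libraries, taken as the named members in each genotype, 3 held a library far from the other 3; chance flags about 1 in 20 groups. Gsto2 in Male YAP replicate 2 had 0.546 scaled RPKM, while the other YAP libraries had 0.393 to 0.417. Cyp2j6 in Male YAP replicate 1 had 4.44, while the other YAP libraries had 4.69 to 4.71. Cyp4a12b in Female Ctrl replicate 2 had 0.0709, while the other Ctrl libraries had 0.203 to 0.227.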

How the results depend on the processing

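Over all alternatives and 37 named members with a test, 740 log2 fold changes were recomputed: 689 kept direction and side of the threshold, 32 lost the call, 14 gained it and 5 changed sign, and 19 of the 27 called named members kept the call throughout. Sult1a1, never called, changed sign, at 0.23 in the replicate 2 libraries alone and between -0.22 and 0.12 over the fits with a library left out; the cause was not tested. Leaving out each library gave 22 to 33 members lower and 7 to 10 higher, 3 to 10 lower Ugt, 3 to 7 higher Cyp and 1 to 2 higher Gst members. Lower Ugt members numbered 3 without Female Ctrl replicate 1, without Male Ctrl replicate 2 or without Male YAP replicate 2, and 4 without Female YAP replicate 2. Higher Cyp members numbered 3 and higher Gst members 2 without Male YAP replicate 1, and higher Gst members 2 without Male Ctrl replicate 2. Replicate 1 libraries alone gave 5 lower Ugt and 2 higher Gst members, and replicate 2 libraries alone 3 lower Cyp members. The stricter filter left 3 higher Cyp members, no filter gave 2 higher Gst members, and Ugt1a counted once gave 3 lower Ugt members, by construction. The replicate block gave 32 lower and 8 higher members; differences between replicates 1 and 2 correlated between groups from -0.00268 to 0.378, not all above 0.1, so the numbers were not taken to pair libraries. The interaction could not be fitted within 1 replicate number. Replicate 2 libraries, with fewer reads, limit genes of few reads.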
